A study of Mus musculus with 4 samples.

Results

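Imprinted genes were followed through RNA sequencing of neural stem cells from Mettl4 knockout and wild type mice. The list held 36 genes of the 55414 gene identifiers in the count tables, chosen by name with earlier results of these data known. All 36 were found by symbol, and 26 of them were among the 19912 genes that had enough counts to be tested. The Mettl4 knockout (KO) group had 2 libraries and the wild type (WT) group had 2. Mettl4 encodes an adenosine methyltransferase, and the labels do not say which part of the gene was removed, in which strain or in how many embryos. In both groups the cells came from the cortex of E14.5 embryos, were expanded as floating neurospheres with EGF and basic FGF and were then plated as an adherent monolayer. The series asks about proliferation, differentiation and alternative splicing after loss of Mettl4. Imprinting itself is not among its stated subjects.

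An imprinted gene is transcribed mainly from the allele inherited from the mother or mainly from the one inherited from the father, because DNA methylation laid down in the egg or the sperm marks one of them. Imprinted genes sit in clusters that share an imprinting control region, and many clusters pair protein-coding genes with a long noncoding RNA expressed from the opposite allele. Many control fetal growth, with paternally expressed genes such as Igf2 promoting it and maternally expressed genes such as Cdkn1c, Grb10 and Igf2r restraining it, and several regulate neural progenitors. The gene counts do not tell the parental alleles apart, so the expressed allele is given below as background and was not measured. In these bulk libraries, fewer cells that express a gene and less RNA per cell cannot be told apart.

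The libraries held 18150389 and 19310668 counts in KO replicates 1 and 2, and 12812064 and 16883734 counts in WT replicates 1 and 2. A count of 0 in a library allows up to 0.158 and 0.164 CPM (counts scaled per 1e6 of the TMM-adjusted library) in the KO libraries and up to 0.226 and 0.183 CPM in the WT libraries, for counting error only. Mettl4 (ENSMUSG00000055660) measured 15.6 and 17.5 CPM in the KO libraries, against 63.6 and 66.5 CPM in the WT libraries, so its RNA was lower in both KO libraries but still counted. It was the only gene of all tested that was called, at a Benjamini-Hochberg adjusted p under 0.05 in the edgeR quasi-likelihood test (log2 fold change -1.97, SE 0.17, adjusted p = 0.0051). The labelled cell type held against its markers, since 14 of 14 neural stem cell markers passed the filter, among them Sox2 at 196 and 213 CPM in the KO libraries and 174 and 196 CPM in the WT libraries.

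The transcription start windows of 4 genes are shown first. Zdbf2 and Grb10 had the largest differences in favour of the KO libraries, and Dlk1 and Meg3 open a domain that was nearly silent in every library. Each window runs from 250 bases before to 50 bases after a RefSeq start in the build GRCm38.p6, 5′ to 3′ on the gene's strand, and the counts themselves were made on GRCm39. The upstream Zdbf2 window was chr1:63200108-63200407 and the downstream one chr1:63273019-63273318, both on the plus strand. The upstream Grb10 window was chr11:12037371-12037670 and the downstream one chr11:12027922-12028221, both on the minus strand. The Meg3 window was chr12:109540746-109541045 and the Dlk1 window chr12:109452573-109452872, both on the plus strand. Capitals mark TGCCGC or its reverse complement GCGGCA, the hexamer that the zinc finger protein ZFP57 binds when it is methylated, which keeps imprints through early development.

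Zdbf2, upstream start: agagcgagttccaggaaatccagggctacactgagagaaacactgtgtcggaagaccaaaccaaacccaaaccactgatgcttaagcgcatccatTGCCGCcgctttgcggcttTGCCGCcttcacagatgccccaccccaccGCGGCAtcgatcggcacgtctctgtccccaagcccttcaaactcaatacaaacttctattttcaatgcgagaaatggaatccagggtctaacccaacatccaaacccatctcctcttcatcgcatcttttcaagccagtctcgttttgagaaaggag
Zdbf2, downstream start: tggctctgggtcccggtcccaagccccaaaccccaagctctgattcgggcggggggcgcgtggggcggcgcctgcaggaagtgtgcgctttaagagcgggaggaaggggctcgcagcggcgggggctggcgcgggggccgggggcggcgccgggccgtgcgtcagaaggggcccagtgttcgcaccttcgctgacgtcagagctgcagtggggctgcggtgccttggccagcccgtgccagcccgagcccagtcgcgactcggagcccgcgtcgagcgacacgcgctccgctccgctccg
Grb10, upstream start: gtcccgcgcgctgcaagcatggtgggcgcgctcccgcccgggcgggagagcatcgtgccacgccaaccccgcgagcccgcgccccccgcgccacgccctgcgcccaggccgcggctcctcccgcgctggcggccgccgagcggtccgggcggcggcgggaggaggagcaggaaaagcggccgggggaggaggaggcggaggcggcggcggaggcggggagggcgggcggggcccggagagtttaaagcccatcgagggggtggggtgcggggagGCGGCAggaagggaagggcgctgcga
Grb10, downstream start: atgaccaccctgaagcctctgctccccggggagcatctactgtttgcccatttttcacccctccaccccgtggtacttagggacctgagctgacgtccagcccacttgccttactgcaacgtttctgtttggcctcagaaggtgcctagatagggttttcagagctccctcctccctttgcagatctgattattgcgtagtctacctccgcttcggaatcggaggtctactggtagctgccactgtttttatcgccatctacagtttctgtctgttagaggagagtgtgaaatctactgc
Meg3, upstream start: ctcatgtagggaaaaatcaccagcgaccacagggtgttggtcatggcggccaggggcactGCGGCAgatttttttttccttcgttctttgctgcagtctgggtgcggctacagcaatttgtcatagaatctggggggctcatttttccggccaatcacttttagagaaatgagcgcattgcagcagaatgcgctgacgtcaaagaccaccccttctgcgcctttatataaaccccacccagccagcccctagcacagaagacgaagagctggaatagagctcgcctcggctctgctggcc
Dlk1: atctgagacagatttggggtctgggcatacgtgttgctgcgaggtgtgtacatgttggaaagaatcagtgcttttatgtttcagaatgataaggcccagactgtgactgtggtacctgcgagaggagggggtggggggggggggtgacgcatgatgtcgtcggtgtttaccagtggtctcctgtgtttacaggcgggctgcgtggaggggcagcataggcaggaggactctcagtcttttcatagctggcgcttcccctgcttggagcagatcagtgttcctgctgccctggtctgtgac

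The upstream Zdbf2 window held 3 matches, the upstream Grb10 window 1 and the upstream Meg3 window 1, while the Dlk1 window and the downstream windows of Zdbf2 and Grb10 held 0. A second, downstream Meg3 window, not shown, held 0 matches and 1 CpG site. The downstream Zdbf2 window and the upstream Grb10 window were rich in CpG, with 38 and 45 CpG sites, against 15 in the upstream Zdbf2 window and 9 in the downstream Grb10 window. Of the 36 genes, 30 had at least 1 window that was counted, and 11 of their 48 windows (22.9%) held the hexamer on either strand, compared with 3813 of all 32851 windows (11.6%). By gene, 10 of the 30 had a match. Some windows of the same gene overlap, as for Mest, so windows are not separate units. Chromosome 18, where Impact lies, was left out for the listed genes, and no such limit was set for all windows. The windows of the listed genes were also richer in CpG, with a median of 12 sites against 7 over all windows. A match describes the letters only, and the counts per gene do not tell which start was used.

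Most of the imprinted genes that were expressed had nearly the same level in KO and WT libraries, and a whole cluster was close to silent in both. Of the 26 tested genes, 0 were called, where 0.00502% of all tested genes were (edgeR, adjusted p under 0.05). At an unadjusted p under 0.05 there were 2, Zdbf2 and Grb10, both higher in KO, against a background of 2.77% of all tested genes, 1.15% higher and 1.62% lower. Because the list was chosen with earlier results of these data known, its shares beside those of all tested genes are description only. With 24 of the 26, the filter was met in every library. H19 met it through 2 KO libraries and 1 WT library and Ddc through the WT libraries only, so Ddc, having passed, had to be higher in WT.

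**Figure D1:**
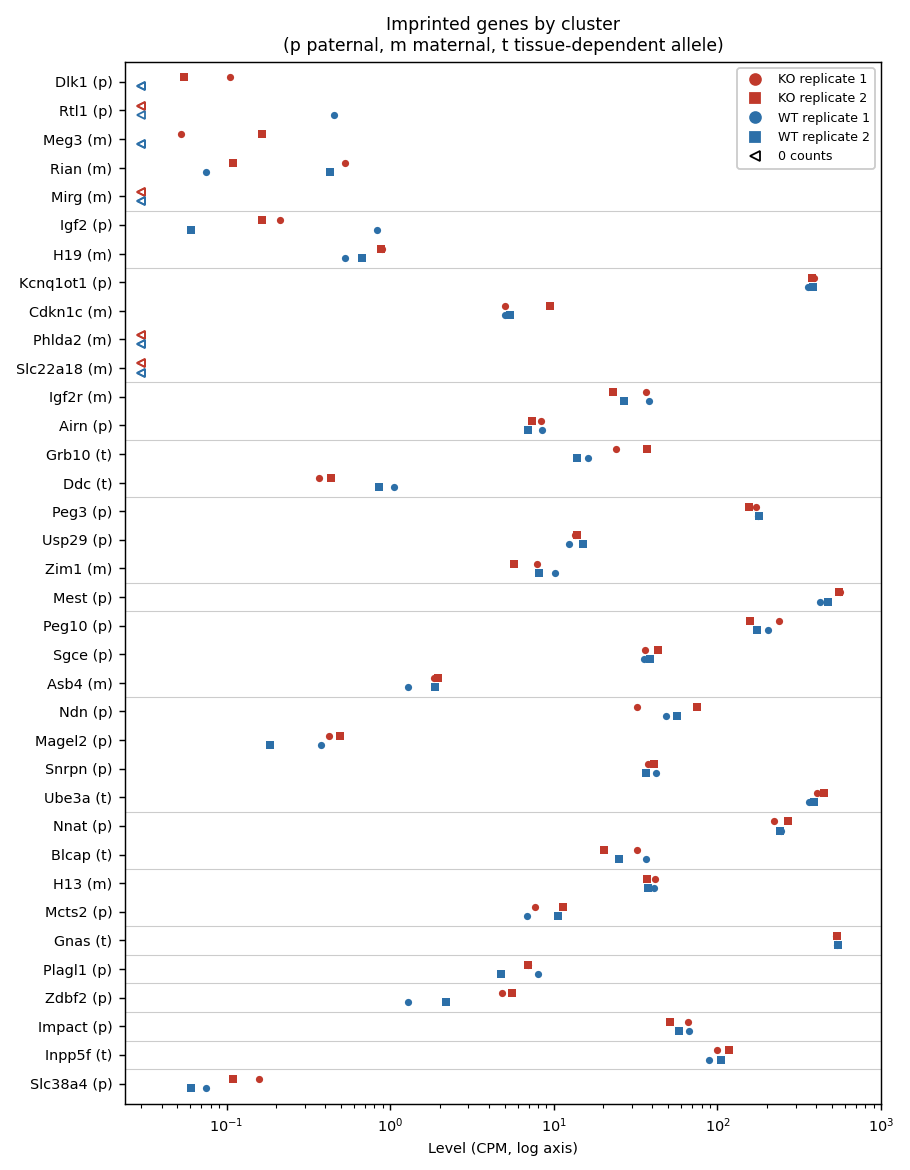
Level of each of the 36 imprinted genes in every library, in CPM on a log axis, grouped by cluster from Dlk1 at the top to Slc38a4 at the bottom; red marks are KO and blue marks are WT libraries, circles replicate 1 and squares replicate 2, and open triangles stand for 0 counts. The letter after each symbol is the expressed parental allele as known (p paternal, m maternal, t dependent on tissue). Dlk1, Rtl1, Meg3, Rian and Mirg lie under 1 CPM in all libraries, and Mest, Gnas, Ube3a and Kcnq1ot1 lie above 300 CPM.

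The Dlk1-Meg3 cluster on chromosome 12 was nearly silent in both genotypes. Its paternally expressed genes encode Dlk1, a membrane protein related to Notch ligands, and Rtl1, a protein derived from a retrotransposon. Dlk1 had 2 and 1 counts in the KO libraries, against 0 and 0 counts in the WT libraries, and Rtl1 had 0 and 0 counts against 6 and 0 counts. Its maternally expressed genes are long noncoding RNAs. Meg3 had 1 and 3 counts in the KO libraries, against 0 and 0 in the WT libraries. Rian, the host of many small nucleolar RNAs, had 10 and 2 counts against 1 and 7, and Mirg, a host of microRNAs, had 0 in all 4 libraries. None of these 5 genes passed the filter, and no fold change is given for them.

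The silence covered the whole interval from Dlk1 to Dio3. In the order of the GENCODE M21 annotation this interval holds 99 of the identifiers in the count tables, and 92 of them had 0 counts in every library, including 59 of 59 microRNA genes and 18 of 18 small nucleolar RNA genes. These short RNAs are poorly captured by libraries of this kind. The pseudogene Gm3379 was the only identifier of the interval that passed the filter, and reads of a processed pseudogene may belong to a related gene elsewhere. Without it the other 98 identifiers had 13 and 9 counts in the KO libraries and 9 and 9 counts in the WT libraries. The interval's distal end, Dio3, which encodes a deiodinase that inactivates thyroid hormone, had 0 counts in all libraries. Genes just outside were transcribed. Ppp2r5c, a regulatory subunit of a protein phosphatase, measured 182 and 202 CPM in the KO libraries and 195 and 205 CPM in the WT libraries. Wdr25 on the other side measured 5.95 and 4.32 CPM in the KO libraries and 7.76 and 4.75 CPM in the WT libraries. Begain, the nearest tested gene on that side, was itself low, at 0.685 and 0.82 CPM against 1.28 and 0.609 CPM.

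**Figure D2:**
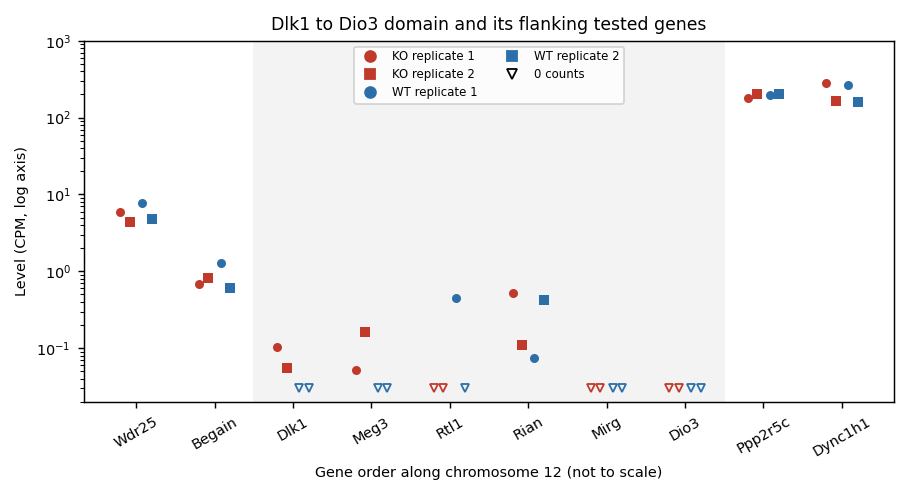
Level (CPM, log axis) of the genes from Dlk1 to Dio3, shaded, and of the nearest tested protein-coding genes on each side, in their order along chromosome 12 and not to scale; red marks are KO and blue marks are WT libraries, circles replicate 1, squares replicate 2 and open triangles 0 counts. The genes drawn in the shaded interval lie under 1 CPM, while Ppp2r5c and Dync1h1 lie above 100 CPM in every library.

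Igf2 and H19 on chromosome 7, which share an imprinting control region bound by CTCF, were also near the limit of detection. Igf2, the paternally expressed fetal growth factor, had 4 and 3 counts in the KO libraries, against 11 and 1 counts in the WT libraries, and was not tested. The WT libraries thus lay on both sides of the KO libraries. H19, the maternally expressed long noncoding RNA of the cluster, measured 0.895 and 0.874 CPM in the KO libraries and 0.527 and 0.669 CPM in the WT libraries. The groups did not overlap, but the interval of the difference was wide (log2 fold change 0.55, 95% interval -0.65 to 1.75, edgeR adjusted p = 1). Igf2 is known to be strongly expressed in the choroid plexus and meninges of the embryo. The choroid plexus gene Ttr had 1 and 4 counts in the KO libraries and 0 and 1 in the WT libraries, and the 8 choroid plexus markers summed to 20.3 and 21.3 CPM in the KO libraries and 21 and 13.5 CPM in the WT libraries. Most of these sums came from Otx2, at 16.6 and 15.7 CPM in the KO libraries and 18.9 and 10.7 CPM in the WT libraries. The collagen gene Col1a1 had 4 and 0 counts against 2 and 9, and the 20 mesenchymal, meningeal and mural markers summed to 91.4 and 61.9 CPM in the KO libraries and 89.2 and 77.1 CPM in the WT libraries, with 2 of 20 at 0 in every library. Their part in the levels of Igf2 and H19 was not tested.

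Next to it on chromosome 7, the Kcnq1ot1 cluster split by level. Kcnq1ot1, the paternally expressed long noncoding RNA that silences its neighbours on the same chromosome, was among the most counted members, at 389 and 380 CPM in the KO libraries and 360 and 386 CPM in the WT libraries (log2 fold change 0.04, 95% interval -0.31 to 0.40). KO replicate 2 lay between the WT libraries and KO replicate 1 just above them. Its annotated exons span 93092 bases, so its level per length was 4.13 CPM per kilobase in KO and 4.01 in WT, close to the median of 3.77 CPM per kilobase over tested genes. Cdkn1c, the maternally expressed inhibitor of cyclin-dependent kinases known as p57, measured 5.06 and 9.51 CPM in the KO libraries and 5.05 and 5.36 CPM in the WT libraries. KO replicate 2 alone was high, and KO replicate 1 lay between the WT libraries (log2 fold change 0.48, 95% interval -0.23 to 1.20, edgeR adjusted p = 1). Without KO replicate 2 the log2 fold change was -0.04. The placental growth restrainer Phlda2 and the transporter gene Slc22a18, both maternally expressed, had 0 counts in all 4 libraries. Kcnq1, the potassium channel gene that Kcnq1ot1 overlaps on the opposite strand, measured 0.948 and 0.984 CPM in the KO libraries and 0.603 and 0.548 CPM in the WT libraries. Whether the libraries kept the strand is not stated in the labels, so reads of overlapping genes on opposite strands, here and in the clusters below, may be mixed.

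Grb10 on chromosome 11 was about 2-fold higher in KO. It encodes an adaptor protein that dampens insulin and IGF receptor signalling, and it is maternally expressed in most tissues but paternally expressed in neurons from another start. Grb10 measured 24 and 36.9 CPM in the KO libraries and 16.2 and 13.8 CPM in the WT libraries. Both KO libraries lay above both WT libraries, and KO replicate 2 was the highest. The group means were 30.4 ± 9.18 CPM in KO and 15 ± 1.72 CPM in WT (SD, n = 2 each), with a log2 fold change of 1.02 (SE 0.24, 95% interval 0.50 to 1.55). The unadjusted p was 0.0014 and the adjusted p over all tested genes was 1 (edgeR). Without KO replicate 1 it was called (log2 fold change 1.30, edgeR adjusted p = 0.0062), and so it was without a low-count filter (adjusted p = 0.0024), while over all 13 alternatives the adjusted p ran from 0.0024 to 1. Without KO replicate 2 the log2 fold change was 0.68, so the size of the difference rests in part on that library. Among the neighbours, Ddc, which encodes the decarboxylase that makes dopamine and serotonin and is imprinted in the embryonic heart, went the other way. Ddc measured 0.369 and 0.437 CPM in the KO libraries and 1.05 and 0.852 CPM in the WT libraries, from 7 and 8 counts against 14 and 14 counts. The groups did not overlap, but at these counts the interval reached 0 (log2 fold change -1.22, 95% interval -2.51 to 0.06, edgeR adjusted p = 1). Having passed the filter through the WT libraries only, Ddc could only be lower in KO. Of the tested genes around the cluster, Fignl1 and Sec61g had log2 fold changes of 0.13 and 0.14, Egfr had -0.05 and Zpbp had -0.56.

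Zdbf2 on chromosome 1, whose protein carries a zinc finger of the DBF type and which is paternally expressed, showed the widest difference of all members. It is a gene of postnatal growth in the mouse, and its imprint is set by transcription from an upstream start in the early embryo. Zdbf2 measured 4.79 and 5.57 CPM in the KO libraries and 1.28 and 2.19 CPM in the WT libraries, from 91 and 102 counts against 17 and 36 counts. Both KO libraries lay well above both WT libraries. The group means were 5.18 ± 0.552 CPM in KO and 1.74 ± 0.644 CPM in WT (SD, n = 2 each), and the fitted ratio was 2.94-fold with a 95% interval from 1.74 to 4.97 (log2 fold change 1.55, SE 0.34). The unadjusted p was 0.00099 and the adjusted p over all tested genes was 1 (edgeR), so the difference did not pass the threshold of the test. In the 13 alternatives the log2 fold change ran from 1.24 to 2.02 and the adjusted p from 0.013, without a low-count filter, to 1. The level stayed low in both groups, at 0.409 CPM per kilobase in KO and 0.137 in WT. The mean over all libraries, 0.273 CPM per kilobase, was above that of only 4.63% of tested genes. None of the nearest tested genes on either side was higher in both KO libraries than in both WT libraries. Eef1b2 and Ndufs1, upstream of it, had log2 fold changes of 0.13 and -0.11, and Fastkd2, downstream, had -0.04. The next gene on that side, 4933402D24Rik, had -0.46. Adam23, a neighbour also reported as imprinted, had 0.30, with 8.37 and 5.79 CPM in the KO libraries and 4.52 and 6.94 CPM in the WT libraries.

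**Figure D3:**
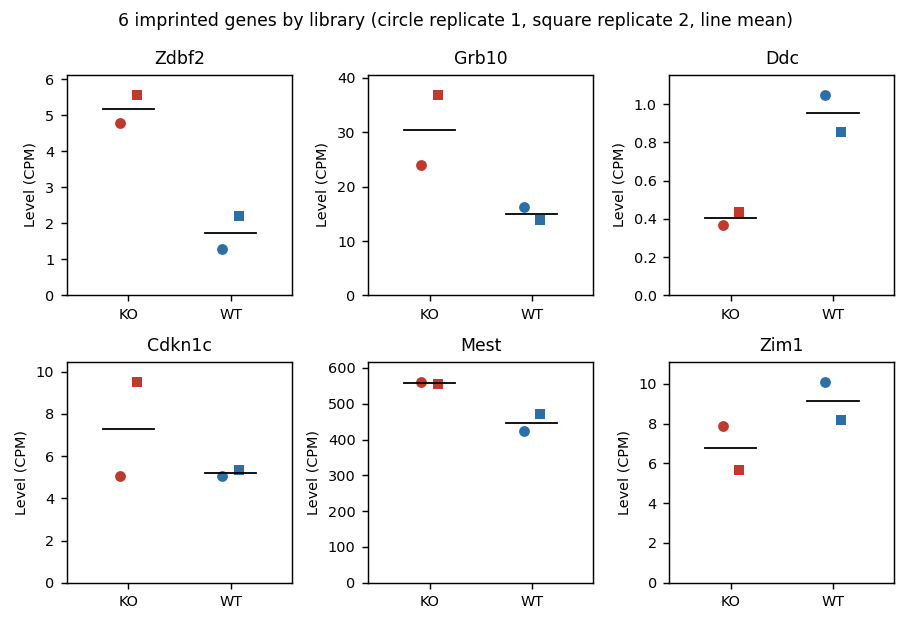
Level (CPM) by library of the 6 imprinted genes with the smallest unadjusted p, KO left of WT in each panel; circles are replicate 1, squares are replicate 2 and horizontal lines are group means of 2 libraries. In Zdbf2, Grb10 and Mest both KO points lie above both WT points, in Ddc and Zim1 both lie below, and in Cdkn1c the groups overlap.

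In the Igf2r cluster on chromosome 17 the KO and WT libraries overlapped. Igf2r, the maternally expressed receptor that takes up IGF2 for degradation, measured 36.8 and 23 CPM in the KO libraries and 38.4 and 27 CPM in the WT libraries. Replicate 1 was above replicate 2 in both genotypes, and the groups overlapped (log2 fold change -0.13, 95% interval -0.69 to 0.43). Airn, the paternally expressed noncoding RNA that runs across Igf2r on the opposite strand, measured 8.37 and 7.38 CPM in the KO libraries and 8.44 and 6.94 CPM in the WT libraries. Its log2 fold change was 0.04, smaller than the spread within either group.

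In the Peg3 cluster on chromosome 7 no gene was called by edgeR. Peg3, a paternally expressed zinc finger protein of growth and cell survival, measured 171 and 155 CPM in the KO libraries and 177 and 179 CPM in the WT libraries. Both KO libraries were below both WT libraries, by a log2 fold change of -0.13 (95% interval -0.45 to 0.19, edgeR adjusted p = 1). Usp29, which shares its promoter region with Peg3 and is also paternally expressed, measured 13.4 and 13.8 CPM against 12.4 and 15 CPM in WT. Zim1, a maternally expressed zinc finger gene, measured 7.9 and 5.68 CPM in the KO libraries and 10.1 and 8.16 CPM in the WT libraries. The groups did not overlap for Zim1 either, with a log2 fold change of -0.42 (95% interval -1.01 to 0.16, edgeR adjusted p = 1).

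Among the 36 listed genes, Mest and Nnat had the highest levels per length. Mest on chromosome 6, a paternally expressed hydrolase-like protein, measured 561 and 554 CPM in the KO libraries and 423 and 471 CPM in the WT libraries, or 141 CPM per kilobase in KO and 113 in WT. It was 1.25-fold higher in KO, with both KO libraries above both WT libraries and an interval that included no change (0.958 to 1.62, edgeR adjusted p = 1). Copg2, the neighbour that overlaps the end of Mest on the opposite strand, measured 286 and 282 CPM in the KO libraries and 220 and 252 CPM in the WT libraries, so that both genes of this overlap ran higher in KO by similar factors. Nnat on chromosome 2, a small paternally expressed membrane proteolipid of neural development, measured 222 and 268 CPM in the KO libraries and 244 and 242 CPM in the WT libraries. The WT libraries lay between the KO libraries, at a log2 fold change of 0.01. Blcap, in whose intron Nnat lies, is expressed mainly from the maternal allele in brain and measured 32.1 and 20.3 CPM in the KO libraries and 36.8 and 25 CPM in the WT libraries. As for Igf2r, replicate 1 exceeded replicate 2 in both genotypes.

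In the Peg10 cluster on chromosome 6, Peg10, a paternally expressed gene derived from a retrotransposon, measured 237 and 158 CPM in the KO libraries and 203 and 175 CPM in the WT libraries. Replicate 1 was again above replicate 2, and the log2 fold change was 0.06. Sgce, the paternally expressed epsilon-sarcoglycan whose loss causes myoclonus dystonia in humans, measured 36.2 and 43.5 CPM in the KO libraries and 35.5 and 38.6 CPM in the WT libraries. Asb4, a maternally expressed ankyrin repeat protein, stayed low, at 1.84 and 1.97 CPM against 1.28 and 1.89 CPM in WT. The groups overlapped in all 3 of these genes.

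The Snrpn-Ube3a cluster on chromosome 7, whose human counterpart is affected in Prader-Willi and Angelman syndromes, was well expressed apart from Magel2. Snrpn, a paternally expressed protein of spliceosomal particles, measured 37.6 and 41 CPM in the KO libraries and 42.3 and 36.5 CPM in the WT libraries, at a log2 fold change of 0.00 (95% interval -0.37 to 0.37). Ube3a, a ubiquitin ligase that is maternally expressed in neurons and expressed from both alleles in most other cells, measured 405 and 449 CPM in the KO libraries and 364 and 387 CPM in the WT libraries. Both KO libraries were above both WT libraries for Ube3a, by a log2 fold change of 0.19 (95% interval -0.18 to 0.55, edgeR adjusted p = 1). Ndn, the paternally expressed protein necdin, which restrains the cell cycle in neural cells, had KO libraries far apart, at 32.2 and 75.1 CPM, against 48.5 and 56.2 CPM in the WT libraries. The KO libraries lay on both sides of the WT libraries, so the log2 fold change of 0.03 (95% interval -0.80 to 0.87) stands for an average of opposite values. Without KO replicate 2 it was -0.70 and without KO replicate 1 it was 0.52. Magel2, a paternally expressed relative of necdin, had 8 and 9 counts in the KO libraries and 5 and 3 counts in the WT libraries and was not tested. Snhg14, the paternally expressed RNA that hosts small nucleolar RNAs and silences Ube3a in neurons, measured 110 and 120 CPM in the KO libraries and 107 and 100 CPM in the WT libraries.

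On chromosome 2, H13, a signal peptide peptidase whose full transcript comes from the maternal allele, measured 41.4 and 37 CPM in the KO libraries and 40.7 and 37.7 CPM in the WT libraries. Mcts2, a paternally expressed retrogene inside an intron of H13, measured 7.69 and 11.3 CPM in the KO libraries and 6.85 and 10.6 CPM in the WT libraries. Neither differed by genotype beyond its spread, and Mcts2 was higher in replicate 2 of both genotypes. Mcts2 also arose as a copy of another gene, so its counts may include reads of that gene. Gnas, which encodes the stimulatory G protein alpha subunit and is maternally biased in some tissues, was the steadiest of the abundant members, at 527 and 537 CPM in the KO libraries and 537 and 545 CPM in the WT libraries. Its log2 fold change was -0.02 (95% interval -0.40 to 0.35), and the counts do not separate its several imprinted transcripts.

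The remaining members are imprinted singly or with few neighbours. Plagl1 on chromosome 10, a paternally expressed zinc finger factor that regulates other imprinted genes, measured 6.95 and 6.99 CPM in the KO libraries and 7.98 and 4.75 CPM in the WT libraries. Impact on chromosome 18, a paternally expressed inhibitor of the kinase GCN2, measured 65.8 and 51 CPM against 67.1 and 58.3 CPM in WT. Inpp5f on chromosome 7, an inositol phosphatase with a paternally expressed brain transcript, measured 99.3 and 117 CPM against 88.3 and 105 CPM in WT. The groups overlapped in all 3 of these genes. Slc38a4 on chromosome 15, a paternally expressed amino acid transporter best known in placenta, had 3 and 2 counts in the KO libraries and 1 and 1 in the WT libraries.

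**Figure D4:**
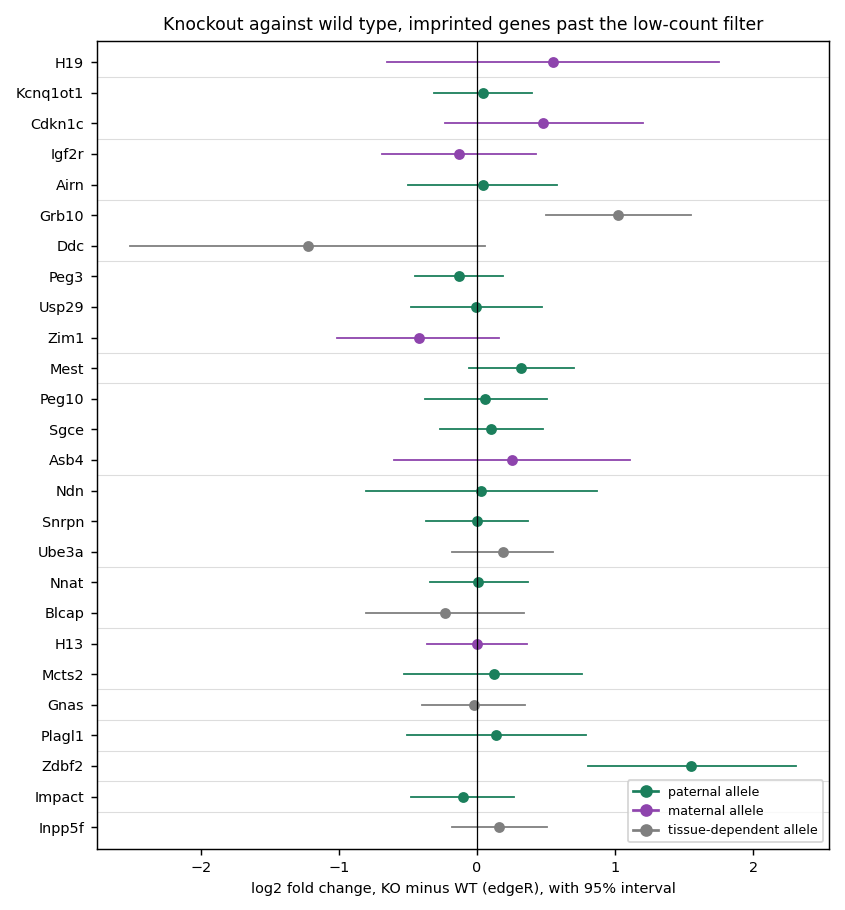
Log2 fold change (KO minus WT, edgeR) with 95% interval of the 26 imprinted genes that passed the low-count filter, in cluster order, coloured by the expressed parental allele as known. The intervals of Zdbf2 (0.80 to 2.31) and Grb10 (0.50 to 1.55) lie above 0 before adjustment over genes, and the other 24 include 0.

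The genes are set out next by expressed allele, without a test of the classes. Of 19 paternally expressed genes 14 were tested, with 10 positive and 4 negative log2 fold changes and a median of 0.04. Of 11 maternally expressed genes 6 were tested, with 4 positive and 2 negative and a median of 0.13. The maternal median ran from 0.00 to 0.28 over the alternatives. Both ends came from other low-count filters, which changed the genes that entered the median. Of 6 genes whose allele depends on tissue 6 were tested, with 3 positive and 3 negative and a median of 0.07. Over all 26 the median was 0.04, beside 0.00 over all tested genes, and 17 were positive where 49.7% of all tested genes were. Both KO libraries were above both WT libraries in 5 of the 26 and below in 3, where 12.5% of all tested genes were above and 14.8% below. A log2 fold change of at least 1 was found in 2 (Zdbf2 and Grb10) and of -1 or less in 1 (Ddc), where 0.979% and 1.23% of all tested genes had one. Ddc is counted here and among the 3 below, although the filter fixed its direction. The choice of the list with earlier results known limits these shares too, and they only describe it.

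Ratios between genes of the same cluster do not depend on how libraries are scaled. The log2 ratio of Grb10 to Ddc was 6.02 and 6.40 in the KO libraries, against 3.94 and 4.01 in the WT libraries, a mean difference of 2.23 that combines a higher Grb10 with a lower, sparsely counted Ddc. Since Ddc could pass the low-count filter only by being higher in WT, the direction of its share in this difference was fixed by the filter. The ratio of Igf2r to Airn was 2.14 and 1.64 in the KO libraries and 2.19 and 1.96 in the WT libraries, and that of H13 to Mcts2 was 2.43 and 1.71 against 2.57 and 1.83. For both ratios replicate 1 was above replicate 2 in each genotype, and the KO and WT libraries overlapped. The ratio of Blcap to Nnat showed the same order, at -2.79 and -3.72 in the KO libraries and -2.73 and -3.28 in the WT libraries. The ratio of Ube3a to Snrpn was 3.43 and 3.45 in the KO libraries and 3.10 and 3.41 in the WT libraries, without overlap, and WT replicate 2 lay close to the KO libraries.

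**Figure D5:**
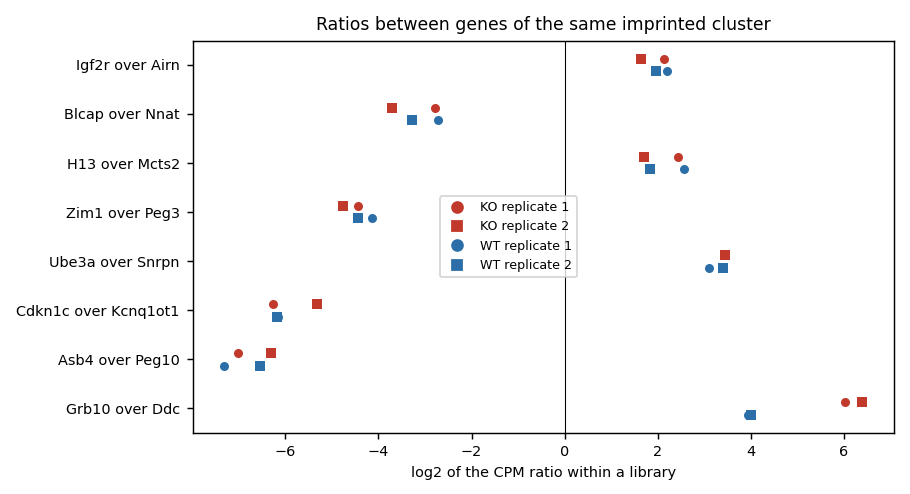
Log2 of the CPM ratio between genes of the same imprinted cluster in each library; red marks are KO and blue marks are WT libraries, circles replicate 1 and squares replicate 2. Grb10 over Ddc is at 6.02 and 6.40 in the KO libraries, apart from 3.94 and 4.01 in the WT libraries, and the other ratios overlap between the genotypes except Ube3a over Snrpn. The direction of Ddc in the Grb10 ratio was fixed by the low-count filter.

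Other imprinted genes, 43 by name of which 42 were found and 29 tested, gave 0 calls in edgeR, with 13 positive and 16 negative log2 fold changes and a median of -0.02. At an unadjusted p under 0.05 there were 2, both low and lower in KO. Pon3, a paraoxonase of the Peg10 cluster, measured 1.16 and 0.82 CPM in the KO libraries and 2.56 and 1.58 CPM in the WT libraries. Htr2a, a serotonin receptor gene, measured 1.26 and 0.656 CPM against 1.73 and 2.19 CPM in WT. Atp10a, a lipid transporter gene near Ube3a, measured 16.6 and 12.8 CPM in the KO libraries and 20.7 and 19.9 CPM in the WT libraries (log2 fold change -0.46, 95% interval -0.93 to 0.01), and Gatm, an enzyme of creatine synthesis, measured 171 and 161 CPM against 183 and 221 CPM. Values close to each other in KO and WT were found for the paternally expressed genes Peg12, at 67.7 and 71.9 CPM in the KO libraries and 71.1 and 71.6 CPM in the WT libraries and Peg13, at 23.6 and 21.6 CPM against 25.2 and 22.6 CPM.

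Of 22 factors listed for imprint maintenance, some bind methylated imprinting control regions or copy their DNA methylation. Among the 19 tested there were 0 calls in edgeR, with 14 positive and 5 negative log2 fold changes between -0.26 and 0.22 and a median of 0.04. Trim28, the corepressor recruited by ZFP57, measured 241 and 182 CPM in the KO libraries and 246 and 153 CPM in the WT libraries. Dnmt1, the maintenance DNA methyltransferase, measured 163 and 135 CPM in the KO libraries and 151 and 124 CPM in the WT libraries, and Zfp57 itself 5.74 and 5.57 CPM against 5.42 and 4.75 CPM. The smallest p belonged to Arid4b, a chromatin protein linked to imprinting in the Snrpn region, at 95.1 and 110 CPM in the KO libraries and 88.9 and 86.6 CPM in the WT libraries (log2 fold change 0.22, 95% interval -0.09 to 0.54). Of the 22 factors, 3 had 0 counts in every library.

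Genes of insulin-like growth factor signalling, the pathway that Igf2, Igf2r and Grb10 act on, gave 0 calls among 21 tested of 26, with 7 positive and 14 negative values and a median of -0.06. Igf2bp2, which binds the messenger RNA of Igf2 and others, measured 27.9 and 33.1 CPM in the KO libraries and 19.9 and 15.4 CPM in the WT libraries (log2 fold change 0.79, edgeR adjusted p = 1). The receptor gene Igf1r measured 71.8 and 51.4 CPM in the KO libraries and 83.1 and 54 CPM in the WT libraries, and the binding protein gene Igfbp2 measured 434 and 402 CPM against 516 and 455 CPM.

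Around the clusters, the nearest tested protein-coding genes outside both imprinted lists, up to 2 on each side and 65 in all, had a median log2 fold change of -0.04, with 30 positive and 34 negative. None was called by edgeR, and 0 had an unadjusted p under 0.05. The log2 fold change reached 1 in size in 2 of them. No marker list of other cells held a call in edgeR. Of the neuron markers 9 of 11 were tested, with 3 positive and 6 negative log2 fold changes (median -0.17), of the endothelial markers 5 of 10, all 5 negative (median -0.23), and of the choroid plexus markers 3 of 8, all 3 positive (median 0.90). Of 12 microglia and macrophage markers 4 were tested, 3 positive and 1 negative, and of 20 mesenchymal, meningeal and mural markers 6, with 2 positive and 4 negative. The choroid plexus marker Aqp1 and the microglia marker Fcer1g passed the filter through the KO libraries only, so the filter fixed their signs. Sums are carried by single genes, Map2 for neurons and Otx2 for choroid plexus. Neuron markers summed to 1230 and 1460 CPM in the KO libraries and 1120 and 1430 CPM in the WT libraries, endothelial markers to 5.32 and 5.52 CPM against 5.95 and 6.45 CPM, and microglia and macrophage markers to 8.74 and 7.6 CPM against 7.46 and 7.36 CPM. Among markers with the smallest p, Acta2 of smooth muscle measured 2.58 and 1.8 CPM in the KO libraries and 6.63 and 3.65 CPM in the WT libraries, and Sostdc1 of choroid plexus 2.48 and 4.21 CPM against 1.73 and 1.83 CPM. Aqp1, also of choroid plexus, had 11 and 12 counts in the KO libraries and 2 and 3 counts in the WT libraries (log2 fold change 1.83, edgeR adjusted p = 1). Their part in the values of the imprinted genes was not tested.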

How the data were processed

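RNA sequencing was analysed in 4 libraries, 2 KO and 2 WT. The authors deposited raw counts of reads for each Ensembl gene identifier, without normalisation. Reads were aligned with STAR 2.7.10 and counted with featureCounts on GRCm39, per the submitters' processing notes. Neither the labels nor the notes state the strand setting or the treatment of multiply matching reads, so counts of overlapping and copied genes are uncertain. Nothing says that the libraries came from separate cultures, and p-values then cover only variation among these libraries, possibly technical.

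Identifiers were matched without version to the symbols of GENCODE M21 (52081 of 55414), whose build differs from that of the counts and which served for names, gene order and exon length. The filter was edgeR's filterByExpr at its minimum count of 10, which corresponds to 0.571 CPM in 2 libraries. CPM used TMM factors. KO was compared with WT by edgeR 4.0.16 (glmQLFit with robust=TRUE, R 4.3.3), with Benjamini-Hochberg adjustment over all tested genes and calls under 0.05. The SE was obtained by dividing the absolute log2 fold change by the square root of the F statistic, and intervals are at 95%. Limits for a count of 0 use 3 counts. Replicate libraries differed by more than counting error (chi-square per degree of freedom 29.5 in KO and 18.7 in WT). Alternatives used other factors and filters, DESeq2 1.42.0, limma-voom (limma 3.58.1), other dispersion settings, the replicate number as a block and leaving out each library.

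The members and lists were chosen with earlier results of these data known. Named were all 36 members and Mettl4, and from each list the tested genes with the smallest p (6 of the other imprinted genes and 3 of each other list, of which only some are described), beside neighbours and further list genes picked out after their values were seen. Promoter windows and hexamer matches used RefSeq sequences of GRCm38.p6.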

Additional observations from a re-analysis of the deposited data

How the results depend on the processing

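No label ties the replicate numbers across genotypes. The deviations of same-numbered libraries correlated at 0.294 over all tested genes and at 0.517 over the tested members. With the replicate block 9 genes and 0 members were called, with Grb10 at an edgeR adjusted p of 0.13 and Zdbf2 at 0.096. Over all genes, 41 were called without a low-count filter (2 members, Grb10 and Zdbf2), 6 by DESeq2 and 1 to 47 when 1 library was left out, against 1 in the reported edgeR fit. Members called ranged from 0 to 1 when 1 library was left out. Zdbf2 and Grb10 were positive in all 13 alternatives. The members' median log2 fold change was 0.07 without a filter and 0.05 to 0.10 when 1 library was left out. That of maternally expressed members was 0.28 without a filter, 0.00 with at least 1 CPM in 2 libraries and 0.10 to 0.25 when 1 library was left out, and that of paternally expressed members 0.02 to 0.10. Without a filter 33 members were tested and with the 1 CPM filter 24, against 26 in the reported fit. The medians under these filters thus cover different genes.

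Of 26 members 11 kept their sign in every alternative that tested them (12 of the 13 for H19 and Ddc, which miss the 1 CPM filter) and 15 did not. With RLE factors, and with DESeq2, Usp29 and Snrpn were at 0.01. Snrpn was at 0.00 with upper-quartile factors, limma-voom and the replicate block, and at 0.01 without a filter, where Usp29 was at 0.00. H13 was at 0.00 with the 1 CPM filter and the block. Ndn was at -0.09 with limma-voom and -0.06 with the block. Leaving out 1 library gave, as log2 fold changes, -0.70 to 0.52 for Ndn, -0.51 to 0.17 for Igf2r, -0.60 to 0.07 for Blcap, -0.19 to 0.48 for Mcts2, -0.30 to 0.07 for Impact and -0.26 to 0.33 for Peg10. It gave -0.18 to 0.55 for Plagl1, -0.04 to 0.87 for Cdkn1c, -0.14 to 0.15 for Usp29, -0.09 to 0.18 for Airn and -0.09 to 0.11 for Snrpn. It gave -0.08 to 0.08 for H13, -0.03 to 0.23 for Sgce, -0.13 to 0.14 for Nnat and 0.00 to 0.11 for Kcnq1ot1. The cause of these changes was not tested. With 2 libraries a group, differences of the size of most members' SE could not be resolved, and 10 members were too sparsely counted to test.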
